A study of Homo sapiens with 3 samples.

Results

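The ERK response and feedback genes examined here were EGR1, EGR2, EGR3, IER2, IER3, DUSP1, DUSP4, DUSP5, DUSP6 and SPRY2. They were taken by name, as 10 EGR, IER, DUSP and SPRY genes of the 29689 gene symbols in the deposited RNAseq table, and all 10 were found there. The data came from tumors of SUM-149, a human TNBC cell line, that had been mixed with Matrigel and grown in the mammary fat pads of female Nu/Nu mice. One tumor library was made after vehicle (mock treatment), one after the CDK2 inhibitor dinaciclib (CDK2i) and one after an EZH2 inhibitor (EZH2i). The labels give EPZ6438 as the EZH2 inhibitor and 10 days as the treatment time for both drugs, whereas the paper names GSK343 for a SUM-149 xenograft growth experiment, so the identity of the EZH2i drug rests on the label. All 3 groups share the cell line and the host, which lacks most T cells but keeps innate immune cells. With 1 library per group no value below has a replicate, no p-value was computed, and a difference between drugs cannot be told apart from a difference between single tumors. Whether a library stands for 1 tumor or a pool is not given in the sources used here.

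ERK is the terminal kinase of the RAS, RAF and MEK cascade that growth factor receptors such as EGFR switch on. Active ERK phosphorylates ternary complex factors of the ETS family, which sit with SRF on CArG boxes in promoters, and genes of this kind are transcribed within minutes without new protein synthesis. EGR1, EGR2 and EGR3 are zinc finger transcription factors of this immediate early class, and IER2 and IER3 are further immediate early genes. DUSP1, DUSP4, DUSP5 and DUSP6 are phosphatases that remove phosphate from MAP kinases, and SPRY2 restrains receptor signaling upstream of ERK, so these 5 genes close negative feedback loops. Several of the 10 also answer to p38, JNK, cAMP or stress signals, and in breast tissue the EGFR pathway is a regular source of their induction.

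Promoter sequence is shown for EGR1, EGR2, DUSP1 and IER2, which were higher in the CDK2i tumor, and for SPRY2, which was not. In the RefSeq promoter table (GRCh38.p14), which was matched by symbol, 6 of the 10 genes had entries, these 5 and DUSP6. Each window runs from 250 bases before to 50 bases after an annotated transcription start and is written 5′ to 3′ on the gene's strand. The windows are chr5:138465229-138465528 on the plus strand for EGR1, chr10:62816317-62816616 on the minus strand for EGR2, chr5:172771146-172771445 on the minus strand for DUSP1, chr19:13150161-13150460 on the plus strand for IER2 and chr13:80341077-80341376 on the minus strand for SPRY2. Capitals mark every match, on either strand, to the CArG box, the cAMP response element TGACGTCA and its core TGACG. They also mark the ETS motif CCGGAA, the EGR site GCGTGGGCG and the TATA box TATAAA. The core lies inside the whole cAMP response element, so these matches overlap.
EGR1: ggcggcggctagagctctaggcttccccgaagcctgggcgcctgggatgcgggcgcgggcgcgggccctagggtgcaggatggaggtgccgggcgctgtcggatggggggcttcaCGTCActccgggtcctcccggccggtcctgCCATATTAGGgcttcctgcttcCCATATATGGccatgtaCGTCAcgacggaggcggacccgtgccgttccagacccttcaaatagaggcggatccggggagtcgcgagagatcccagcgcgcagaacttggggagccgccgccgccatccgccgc
EGR2: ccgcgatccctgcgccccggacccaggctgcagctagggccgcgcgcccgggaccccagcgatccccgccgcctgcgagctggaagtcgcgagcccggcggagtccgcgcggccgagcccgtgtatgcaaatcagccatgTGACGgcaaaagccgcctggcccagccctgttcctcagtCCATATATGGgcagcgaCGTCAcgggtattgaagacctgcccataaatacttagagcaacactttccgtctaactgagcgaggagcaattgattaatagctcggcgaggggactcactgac
DUSP1: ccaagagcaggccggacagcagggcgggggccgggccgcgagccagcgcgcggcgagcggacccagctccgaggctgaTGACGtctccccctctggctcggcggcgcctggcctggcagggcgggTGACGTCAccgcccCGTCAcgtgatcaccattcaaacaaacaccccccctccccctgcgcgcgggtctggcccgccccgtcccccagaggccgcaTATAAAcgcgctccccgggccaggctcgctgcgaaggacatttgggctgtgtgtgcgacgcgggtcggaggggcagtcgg
IER2: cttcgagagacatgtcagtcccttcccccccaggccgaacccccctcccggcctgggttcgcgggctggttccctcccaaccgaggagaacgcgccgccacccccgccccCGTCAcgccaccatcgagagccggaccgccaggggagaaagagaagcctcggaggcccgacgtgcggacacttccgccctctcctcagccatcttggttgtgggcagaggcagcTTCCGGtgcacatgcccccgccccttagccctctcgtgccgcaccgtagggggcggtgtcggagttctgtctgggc
SPRY2: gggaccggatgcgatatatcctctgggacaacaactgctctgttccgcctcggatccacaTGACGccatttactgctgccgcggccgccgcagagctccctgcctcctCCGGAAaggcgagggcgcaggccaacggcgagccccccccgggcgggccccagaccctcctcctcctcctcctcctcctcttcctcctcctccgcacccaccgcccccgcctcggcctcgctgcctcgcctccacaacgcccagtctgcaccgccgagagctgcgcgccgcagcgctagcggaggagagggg

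CArG boxes were found in 2 of the 10 windows of the 6 genes, those printed for EGR1 and EGR2, against 1.29% of all 35114 promoter windows of this length. EGR1 held a pair of them, at −105 to −96 and −83 to −74 from the start, and EGR2 held 1, at −71 to −62. The whole cAMP response element was found in DUSP1 alone, at −125 to −118 (1.85% of all windows), and DUSP1 was also the only one of the 6 genes with a TATA box, at −30 to −25 (11.5%). The core TGACG was present in 5 of the 10 windows, those printed for EGR1, EGR2, DUSP1, IER2 and SPRY2, and in 24.6% of all windows. The ETS motif CCGGAA was in 2 of the 10 windows, at −26 to −21 in IER2 and at −142 to −137 in SPRY2 (17.2%). Shorter or variant ETS sites were not searched, so a window without CCGGAA can still hold one. The EGR site was in no window of the 6 genes (0.795% of all windows), and the DUSP6 window held none of the motifs searched. EGR2 and SPRY2 each had 3 windows for alternative starts, and the other windows of both held no match. These matches describe letters in the windows, and occupancy of the promoters was not measured.

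**Figure D1:**
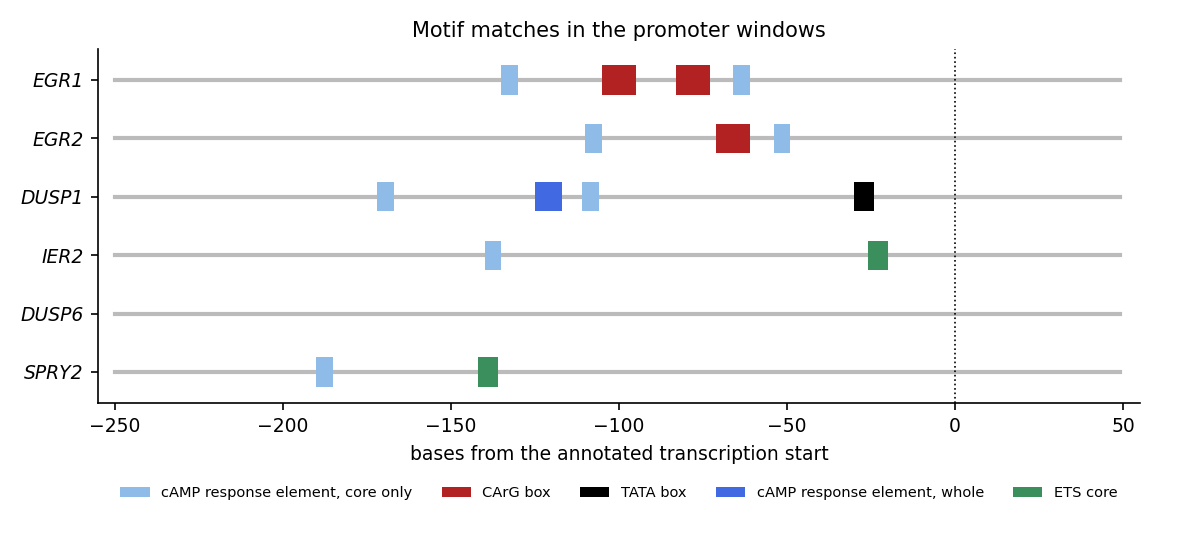
Motif matches in the promoter windows of 6 of the genes, plotted as bases from the annotated transcription start (0, dotted line). Boxes mark the matches by motif, and ETS core stands for CCGGAA alone. CArG boxes appear in EGR1 (at −105 and −83) and EGR2 (at −71), and the whole cAMP response element in DUSP1 (at −125).

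In the CDK2i tumor most of these genes were well above the vehicle tumor, and in the EZH2i tumor they were not. To be called changed, a gene needed more than a 2-fold difference and more than 8 FPKM (log2 FPKM 3) in whichever tumor of the pair had more. FPKM is a fragment count scaled by gene length and library size. The minimum was reached by 9 of the 10 genes in the CDK2i comparison (EGR2, EGR3 and DUSP5 through the CDK2i tumor alone). It was reached by 7 in the EZH2i comparison (EGR3 through the EZH2i tumor alone) and by 9 between the treated tumors (EGR2 and DUSP5 through the CDK2i tumor alone). By this rule 7 of the 10 genes (EGR1, EGR2, IER2, IER3, DUSP1, DUSP5 and DUSP6) were higher in CDK2i than in vehicle and 0 were lower. Of all 6632 genes above this expression minimum, 3.27% were higher and 8.07% lower. In EZH2i 0 of the 10 were higher and EGR1 alone was lower, against 8.93% higher and 4.42% lower of 7414 genes. Set directly against the EZH2i tumor, the CDK2i tumor was higher in EGR1, EGR2, IER2, IER3 and DUSP1 and lower in DUSP4, 5 and 1 of the 10, against 6.52% and 17.5% of 7394 genes. The median log2 change of the 10 genes was 1.59 in CDK2i and 0.48 in EZH2i, while that of the 11109 expressed genes (those above 0 FPKM in each library, with log2 FPKM over 1 on average) was −0.11 and 0.19. The 2 comparisons with vehicle share its library. The genes were listed with earlier results of these data known, so these counts are a description.

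**Figure D2:**
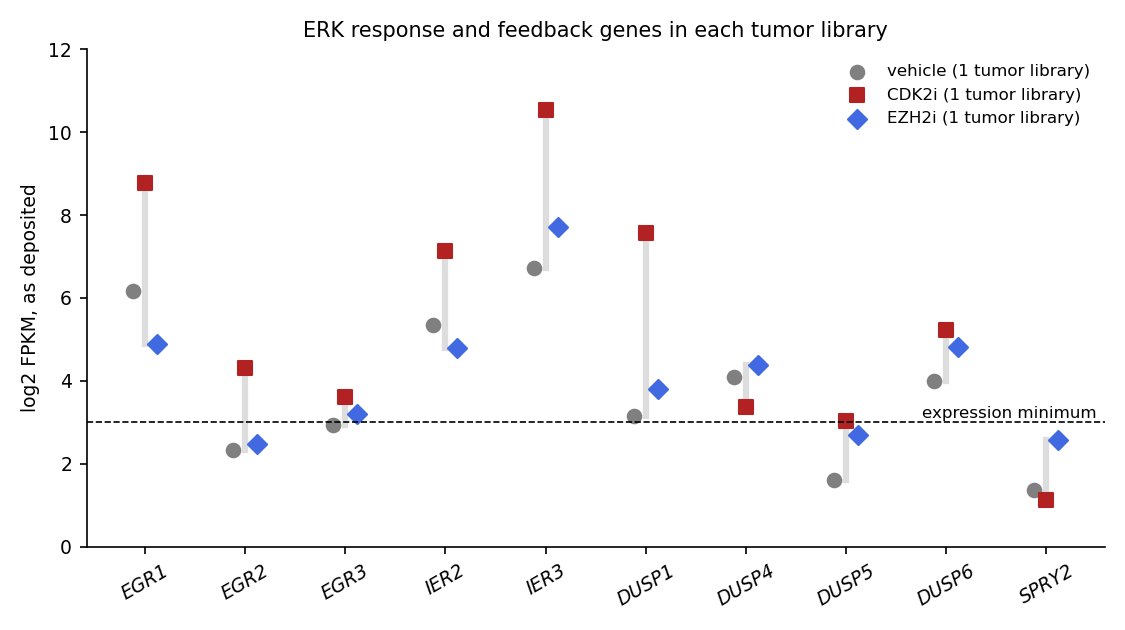
log2 FPKM of each of the 10 genes in the vehicle, CDK2i and EZH2i tumor (1 library each, no error bars), with a grey bar over the range of the 3 values and a dashed line at the expression minimum of log2 FPKM 3. The CDK2i symbol is the highest for 8 genes; DUSP4 and SPRY2 are the exceptions.

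Since no replicate exists, the spread of a gene is used here as a yardstick. It is the SD, over the 200 expressed genes nearest in mean level, of log2 FPKM in EZH2i minus that in CDK2i, and it holds drug effects as well as noise. It ran from 0.64 to 1.15 on the log2 scale over the 10 genes. How many of all genes lie beyond their spread was not computed, so the counts below have no background share beside them. In CDK2i, as deposited, 7 genes were higher and 1 (DUSP4, by a narrow margin) was lower than in vehicle by more than their spread, and EGR3 and SPRY2 were within it. With centring of each library on its median gene, or with the fitted trend of change over transcript GC content and length subtracted, 8 were higher and 0 lower, EGR3 having moved out of its spread and DUSP4 into it. The fitted trend holds a constant, so its removal also shifts each treated library as a whole, as centring does. The part of GC content and length alone is thus not separated. In EZH2i 4 genes were higher and 1 lower beyond their spread, and EGR2, EGR3, IER2, DUSP1 and DUSP4 were within it. These EZH2i counts turned on the scaling, with 0 higher and 2 lower (EGR1 and IER2) under centring, 5 and 1 with equal summed FPKM and 3 and 1 with the trend removed. Statements about the spread below refer to changes under the deposited scaling unless another is named. The spread itself was always taken from the deposited values, so changes with the trend removed are set against a spread that still holds it.

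EGR1, on chromosome 5 of GRCh37 (137801168 to 137804992), had an FPKM of 72.4 with vehicle, 439.6 with CDK2i and 29.6 with EZH2i. It was the only one of the 10 genes past the thresholds in opposite directions, 6.07 times the vehicle level in CDK2i and 0.408 times in EZH2i, log2 changes of 2.60 and −1.29 with a spread of 0.64. The CDK2i tumor thus held 14.9 times the EGR1 level of the EZH2i tumor. EGR2 (chromosome 10, 64571756 to 64578927) was at 5.06, 19.8 and 5.58 FPKM in vehicle, CDK2i and EZH2i. It was high in CDK2i alone, at 3.90 times vehicle, and vehicle and EZH2i lay within its spread of 0.89. EGR3 (chromosome 8, 22545172 to 22550993) was at 7.70, 12.2 and 9.22 FPKM. Its log2 changes of 0.67 and 0.26 were both within its spread of 0.83, and the CDK2i change reached 0.85 with centring, just beyond it. NAB1 and NAB2 encode corepressors that bind EGR proteins, and NAB2 is itself an EGR target. NAB2 was lower in CDK2i, at 14.0 FPKM against 28.2 in vehicle and 24.4 in EZH2i, just past the fold threshold with a log2 change of −1.01, which was −0.83 with centring and did not pass.

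IER3 (chromosome 6, 30710976 to 30712325), which encodes a small protein tied to cell survival under NF-κB and ERK signaling, was the most abundant of the 10 in every library. It stood at 106 FPKM (vehicle), 1476 (CDK2i) and 209 (EZH2i). In CDK2i this was 14.0 times the vehicle level, and 99.7% of expressed genes had a lower FPKM there. Its EZH2i value was 1.98 times vehicle, a log2 change of 0.98 that exceeded its spread of 0.74, though not with centring, and stopped just short of the fold threshold. IER2 (chromosome 19, 13261225 to 13265725), a nuclear regulator of transcription, was at 40.9, 140.3 and 27.6 FPKM. The CDK2i tumor was high at 3.43 times vehicle, and the EZH2i value, 0.673 times vehicle, was within the spread of 0.73. IER3 took 37.8% of the summed FPKM of the 10 genes in vehicle, 63.2% in CDK2i and 58.6% in EZH2i.

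The phosphatases did not move as a group. DUSP1 (chromosome 5, 172195099 to 172198198), a nuclear phosphatase that acts on p38 and JNK as well as ERK, was at 8.88 FPKM (vehicle), 190.4 (CDK2i) and 14.0 (EZH2i). Its 21.4-fold difference was the largest of the 10 genes in CDK2i, with a log2 change of 4.42 against a spread of 0.77, and 99.9% of the genes above the minimum had a smaller log2 change. By level it ranked 6 among the 10 genes in vehicle and 3 in CDK2i. Vehicle and EZH2i differed by 0.66, within the spread.

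DUSP4 (chromosome 8, 29190581 to 29208201), also nuclear, went the other way, with 16.9 FPKM (vehicle), 10.4 (CDK2i) and 20.9 (EZH2i). Neither treated tumor passed the fold threshold against vehicle (log2 changes of −0.70 and 0.30). CDK2i was 0.498 times EZH2i, which only just passed. With the libraries centred on their median gene, the log2 difference between CDK2i and EZH2i was −0.57 and did not pass.

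DUSP5, a nuclear phosphatase selective for ERK (chromosome 10, 112257665 to 112271291), was low throughout, at 3.05 FPKM (vehicle), 8.11 (CDK2i) and 6.49 (EZH2i). The CDK2i value was only just above the expression minimum. Both treated tumors were above vehicle, with log2 changes of 1.41 and 1.09 against a spread of 0.86, and only CDK2i counted as changed because EZH2i stayed below the minimum. With centring the EZH2i change was 0.84, just within the spread. DUSP6, the cytoplasmic phosphatase selective for ERK (chromosome 12, 89741012 to 89746278), was at 15.9 FPKM (vehicle), 37.5 (CDK2i) and 28.1 (EZH2i). As deposited, both treated values were above vehicle by more than its spread of 0.65, with log2 changes of 1.24 and 0.82. The EZH2i change was 0.57 with centring and 0.40 after removal of the trend, both within the spread, and 1.06 with equal summed FPKM, past the fold threshold. CDK2i and EZH2i differed by 0.32 for DUSP5 and 0.42 for DUSP6, within the spread of each as deposited. For DUSP6 this depended on the scaling, since the difference was 0.85 with centring, beyond the spread, and 1.04 after removal of the trend, past the fold threshold.

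SPRY2 (chromosome 13, 80910111 to 80915261) was the least abundant gene in vehicle and CDK2i. It was at 2.57 FPKM (vehicle), 2.18 (CDK2i) and 5.98 (EZH2i), and so never reached the expression minimum. EZH2i was the high library, at 2.32 times vehicle, a log2 change of 1.22 against a spread of 1.15, and 0.97, within the spread, with centring. CDK2i was within the spread of vehicle and 1.46 below EZH2i on the log2 scale.

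Depth allows most of these differences to be read apart from counting error. With the exon lengths of the GENCODE annotation and approximate library sizes of 16.7, 19.1 and 17.5 M fragments (vehicle, CDK2i, EZH2i), read from the steps of 1 fragment among low values, the thinnest genes were DUSP5, with about 129, 392 and 287 fragments, and SPRY2, with about 138, 134 and 336. The exact 95% binomial interval of the log2 change in CDK2i ran from 1.12 to 1.71 for DUSP5 and from −0.59 to 0.12 for SPRY2. For SPRY2 in EZH2i it ran from 0.93 to 1.52. IER3 stood for about 2383 fragments in vehicle and 38006 in CDK2i. These intervals cover counting error only, since the gene lengths used by the authors are not given and fragments from PCR are not independent molecules.

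**Figure D3:**
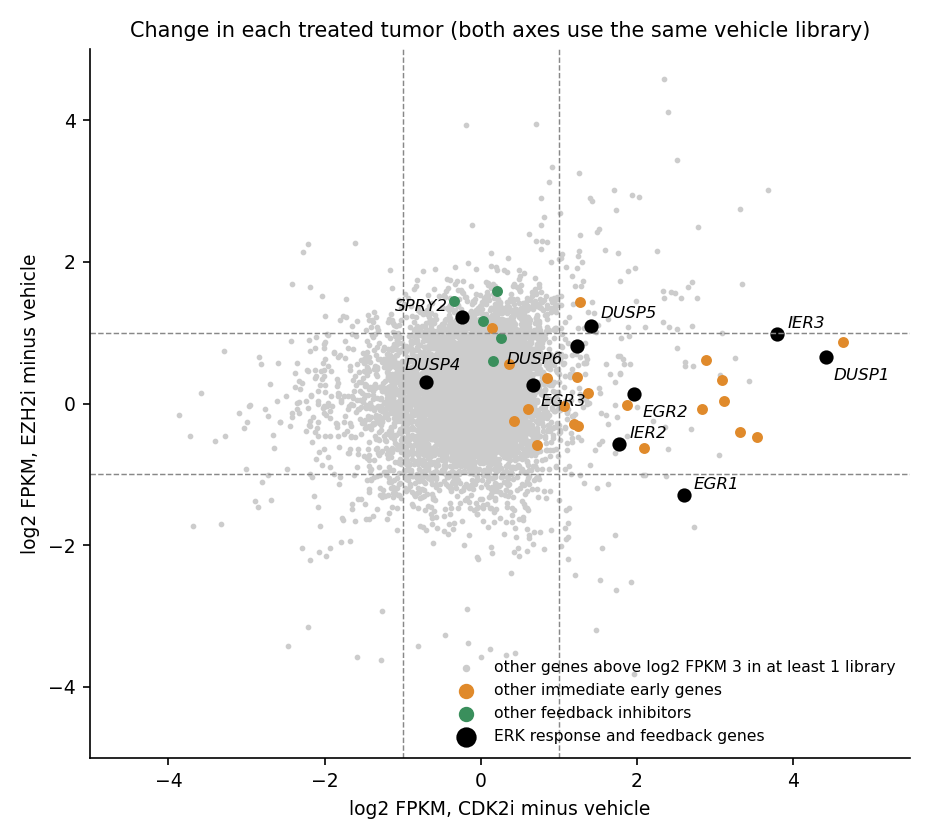
log2 FPKM of CDK2i minus vehicle (x axis) against EZH2i minus vehicle (y axis) for 7572 genes above log2 FPKM 3 in at least 1 library, with SPRY2 added, the 10 genes in black, the other immediate early genes in orange and the other feedback inhibitors in green. Dashed lines mark 2-fold changes, both axes contain the same vehicle library, and 2 genes lie beyond the axes; DUSP1 (4.42) and IER3 (3.81) lie far to the right, while SPRY2 lies left of 0 on the x axis and above the upper line.

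The rest of the pathway was described with lists of genes by role. The counts of each list below stand beside the shares over all genes above the minimum. These were 3.27% higher and 8.07% lower in CDK2i, and 8.93% higher and 4.42% lower in EZH2i. Of 26 other immediate early genes, 15 of the 21 above the minimum were higher in CDK2i and 0 were lower, and the median log2 change of the 23 expressed members was 1.25. FOSB, KLF2 and NR4A2 reached the minimum through the CDK2i tumor alone, and BTG2 was at 0.92 with equal sums without ribosomal protein and mitochondrial genes. In EZH2i 2 of 19 above the minimum were higher (FOSL1 and MCL1, the latter at 0.57 with the GC and length trend removed, short of the fold threshold). In that tumor 0 were lower and the median was −0.04. The levels were highest in CDK2i for FOS, an AP-1 subunit (20.5 FPKM for vehicle, 510.9 for CDK2i, 37.3 for EZH2i), for NR4A1, an orphan nuclear receptor (16.1, 140.3 and 16.5), and for ZFP36, which destabilizes cytokine mRNAs (21.7, 184 and 27.4). EGR4, the remaining EGR gene, was at 3.34, 6.81 and 2.93 FPKM and stayed below the minimum. IER5 was at 60.8, 92.9 and 57.9 FPKM and did not pass the fold threshold.

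Of 11 feedback inhibitors other than SPRY2, 7 were expressed, and as deposited these 7 were higher in EZH2i than in CDK2i, as were 7435 of all 11109 expressed genes. Once the GC and length trend was removed RASA1 was on the other side (0.09), and SPRED3 and IL17RD, below 1 FPKM in every tumor, were highest in CDK2i. In EZH2i 5 of the 11 were above the minimum, and SPRED1, SPRED2 and ERRFI1 were called higher than vehicle. Of these, SPRED1 and SPRED2 reached the minimum through the EZH2i tumor alone. In CDK2i only 2 of the 11 (ERRFI1 and LRIG1) were above the minimum, and 0 were called. The median log2 change of the 7 expressed members was 0.07 in CDK2i and 1.28 in EZH2i. SPRED1, a membrane-bound inhibitor of RAS activation, was at 3.20 FPKM (vehicle), 3.71 (CDK2i) and 9.64 (EZH2i), and SPRED2 was at 3.69, 2.91 and 10.1. ERRFI1, which binds and inhibits EGFR, was at 20.0, 20.3 and 44.8 FPKM. SPRY4 was at 2.15, 1.99 and 6.88 FPKM, below the minimum. In EZH2i the change of a gene also ran with the GC content and length of its transcript, with Spearman correlations of −0.582 and 0.492 across 10144 genes, which are not independent replicates, against 0.0344 and 0.0943 in CDK2i. With that trend removed the median of this list in EZH2i was 0.71, SPRED2 was at 1.11, ERRFI1 at 0.71 and SPRED1 at 0.71, and SPRY2 was at 1.01. With centring alone the median of the list was 1.03. The part of transcript composition in these changes was not otherwise tested.

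Of 6 other MAP kinase phosphatases, 3 were above the minimum in CDK2i and 4 in EZH2i, and 0 were changed in either. The medians over 4 expressed members were −0.06 in CDK2i and 0.47 in EZH2i. DUSP2 and DUSP8 were below the minimum in every tumor, so neither could be called. The log2 changes in CDK2i and EZH2i were −1.51 and −2.14 for DUSP2, and 0.80 and −1.21 for DUSP8. DUSP10, which acts on p38 and JNK, was at 16.2 FPKM (vehicle), 9.57 (CDK2i) and 18.4 (EZH2i), the same order as DUSP4. DUSP7, a cytoplasmic relative of DUSP6, was at 43.7, 48.8 and 74.6 FPKM. Of 7 delayed ERK output genes, 3 were above the minimum in CDK2i and 0 were changed. In EZH2i 4 were above it and PHLDA1 alone was higher (4.69 FPKM for vehicle, 6.67 for CDK2i, 14.1 for EZH2i). PHLDA1 reached the minimum through the EZH2i tumor alone, and its log2 change was 0.90, short of the fold threshold, once the trend was removed. CCND1, which encodes cyclin D1, was at 40.8, 55.8 and 55.5 FPKM, and ETV4 was at 19.8, 23.7 and 23.8, each within its spread in both treated tumors.

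The cascade genes themselves were mostly within 2-fold of vehicle. Of 21 genes from the receptor adaptors and RAS to the RSK and MSK kinases, 14 were above the minimum in CDK2i and 0 were changed. In EZH2i 3 of 16 (SOS2, PTPN11 and RPS6KA3) were higher and 0 were lower. SOS2 and RPS6KA3 reached the minimum through the EZH2i tumor alone, so only a higher call was open to them. With the GC and length trend removed these 3 genes were at log2 changes of 0.62, 0.46 and 0.69, and none passed the fold threshold. MAPK3, which encodes ERK1, was at 17.8 FPKM (vehicle), 29.3 (CDK2i) and 13.9 (EZH2i). SRF differed from vehicle by −0.03 in CDK2i and 0.16 in EZH2i on the log2 scale. Its partner ELK1 was at 15.2, 18.6 and 17.3. ELK3 and ELK4 were higher in EZH2i, at 12.7 and 10.3 FPKM against 3.17 and 3.71 in vehicle. Both reached the minimum through the EZH2i tumor alone, and ELK4 was short of the threshold once the trend was removed. The SRF cofactor gene MKL1 was lower in CDK2i (−1.29), having reached the minimum through the vehicle tumor alone.

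Upstream, 7 of 11 genes for EGFR family receptors and their ligands were above the minimum in each comparison with vehicle. Of these 2 were higher in CDK2i (3.27% of all genes) and 4 in EZH2i (8.93%), and 0 were lower in either. HBEGF, a ligand of EGFR, was at 9.66 FPKM (vehicle), 63.0 (CDK2i) and 31.8 (EZH2i). TGFA was at 6.16, 13.9 and 21.4 FPKM, and reached the minimum through the treated tumor alone in each comparison with vehicle. EREG and EGFR passed in EZH2i alone, with log2 changes of 1.62 and 1.05, which were 0.86 and 0.42 with the trend removed. With centring alone they were 1.37 and 0.80. The activity of ERK was not measured, so transcript levels of its response genes are all that these libraries give.

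**Figure D4:**
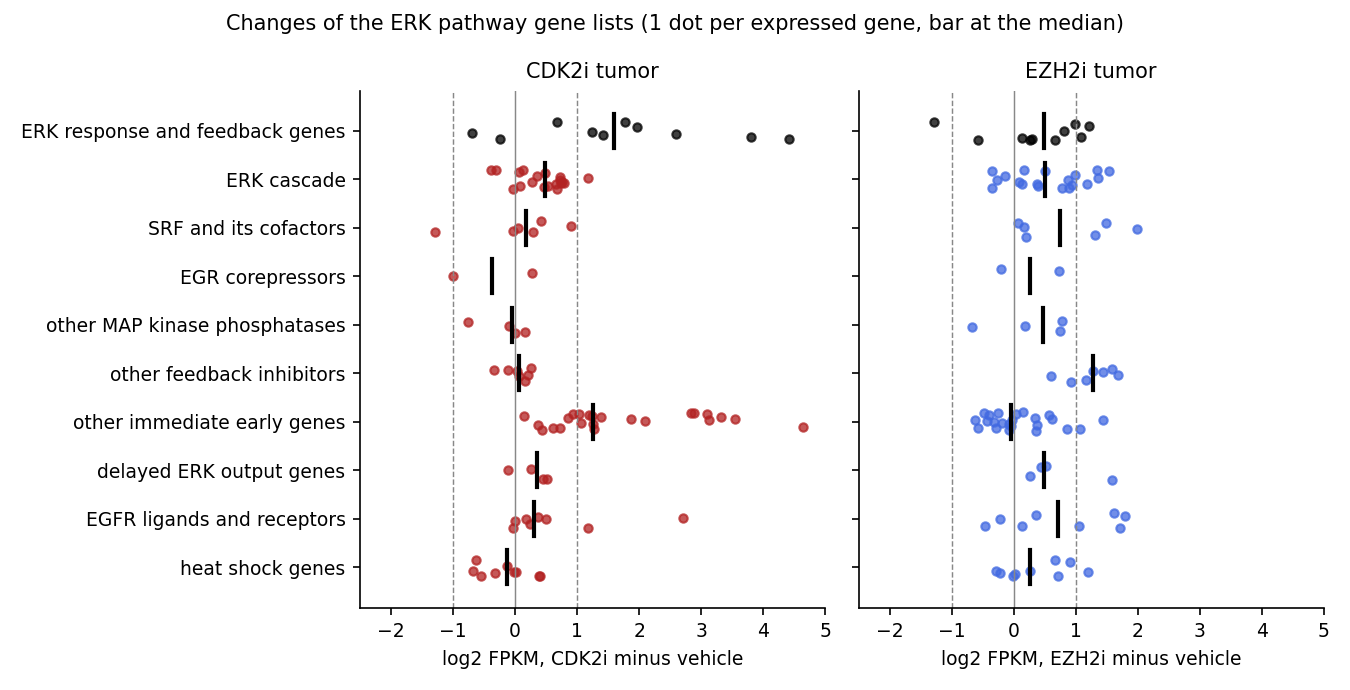
log2 FPKM of CDK2i minus vehicle (left, red) and EZH2i minus vehicle (right, blue) for the 10 genes (top row, black) and the pathway lists, with 1 dot for each expressed gene, a black bar at each list's median and dashed lines at 2-fold. In CDK2i the medians of the 10 genes (1.59) and of the other immediate early genes (1.25) stand to the right of the fold line, and in EZH2i that of the other feedback inhibitors (1.28) does.

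Genes with the most similar pair of changes were sought among 7572 genes above the minimum in at least 1 library, by the Euclidean distance between their log2 changes in CDK2i and EZH2i. The ERK response and feedback genes examined here were themselves left out as neighbors. This is a likeness over 3 libraries only. Nearest to EGR1 were IER5L (2.37 in CDK2i and −1.02 in EZH2i, distance 0.35), RASD1 (2.73 and −1.74) and SLC6A14 (2.11 and −1.01). Nearest to IER3 among the remaining genes were IL17C (4.01 and 1.21, distance 0.31), LIF (3.26 and 0.65) and SNORD3A (3.09 and 1.00). DUSP1, which was left out, had a pair of changes (4.42 and 0.66) nearer to IER3 than that of SNORD3A. For DUSP6 they were SLC12A2, CELSR1 and SBSPON, at distances of up to 0.08, and for SPRY2 they were DSCC1, FANCI and HMMR, at up to 0.05. EGR1 and IER3 had no neighbor as close as those of DUSP6 and SPRY2. Few genes have changes as large as theirs in CDK2i, so these wider distances are not a measure of regulation. Some neighbors were also near the floor, with RASD1 at 0.490 and SLC6A14 at 0.972 FPKM in EZH2i and IL17C at 0.685 in vehicle.

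Markers of stress and of cell types were read in the same libraries. Heat shock genes, which respond to stress of cells and tissue, had 0 of 9 members above the minimum changed in CDK2i and 1 (HSPH1, at 0.45 with the trend removed) higher in EZH2i, although HSPA6, below the minimum, was at 0.765 FPKM (vehicle), 4.36 (CDK2i) and 0.582 (EZH2i). Of 7 epithelial markers, all above the minimum in all 3 tumors, the basal keratin genes KRT5, KRT14 and KRT17 were higher in CDK2i, and the summed FPKM of the list was 5248 in vehicle, 12366 in CDK2i and 4908 in EZH2i. Macrophage markers summed to 11.5, 11.1 and 5.52 FPKM over 6 of 8 genes, of which CD14 was lower in EZH2i (log2 change of −1.35, and −0.91, short of the threshold, with the trend removed), with CD68 and AIF1 listed at 0 in both treated tumors. Neutrophil markers summed to 6.44, 9.30 and 0.565 FPKM over 5 genes, of which CXCR2 was listed at 0 in EZH2i and MPO in CDK2i, and most of the sum was S100A12, which keratinocytes also express. Fibroblast markers summed to 24.5, 38.4 and 28.9 FPKM over 7 genes, with COL1A1 (log2 change of 0.95 in CDK2i) the largest part of each sum. LUM was just past the threshold in CDK2i (1.02, and 0.87 with equal sums without ribosomal protein and mitochondrial genes). The list did not move together. In CDK2i COL1A1, COL1A2, LUM and PDGFRA were above vehicle, and COL3A1 (−1.44), DCN (−0.70) and PDGFRB (−0.19) were below it. COL3A1 was also below vehicle in EZH2i (−2.07). Endothelial markers summed to 0.833, 0.730 and 0.466 FPKM over 3 of 5 genes. C1QA, C1QB, PECAM1 and TEK were looked up and had no entry under these symbols, so they could not be read. The values were aligned to the human genome, and how reads of mouse stroma were treated is not given in the sources used here. The part of each of these in the changes of the 10 genes was not tested, and in bulk tumor RNA more cells of a type and more RNA per cell cannot be told apart.

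The scaling between libraries altered the EZH2i results more than the CDK2i results. In CDK2i the median of the 10 genes ran from 1.45 to 1.78 over the scalings tried, and EGR1, EGR2, IER2, IER3, DUSP1 and DUSP6 stayed past the thresholds under each of them. The exception was DUSP5, which fell short of the expression minimum when summed FPKM was equalized after ribosomal protein genes and genes of the mitochondrial genome were set aside. In EZH2i, EGR1 was lower under every scaling, by log2 changes of −1.05 to −1.54, and the median of the 10 genes ran from 0.20 to 0.72. EGR2 changed sign in EZH2i with centring (−0.11), and EGR2, EGR3 and DUSP4 did so with the trend removed (−0.05, −0.003 and −0.08). SPRY2 did so in CDK2i with the trend removed (0.002). IER3 passed the fold threshold in EZH2i with equal sums (1.23), with equal sums without those genes (1.02) and with the trend removed (1.37), and DUSP6 passed with equal sums (1.06).

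**Figure D5:**
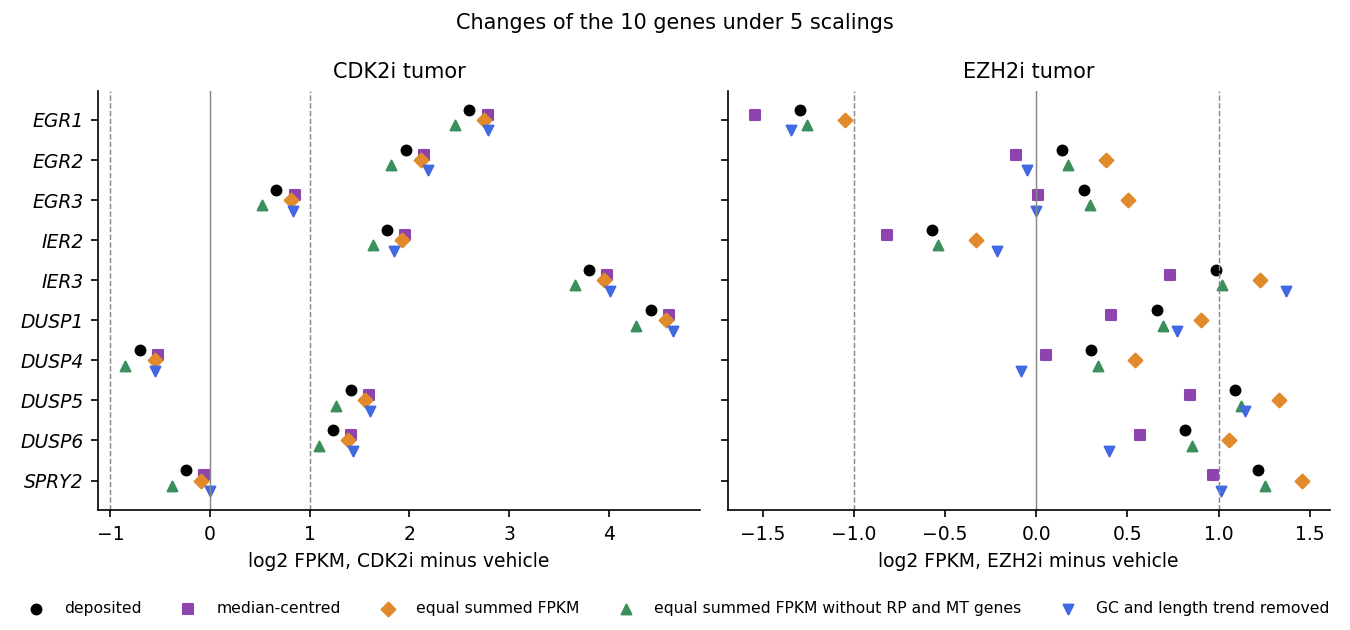
log2 FPKM of CDK2i minus vehicle (left) and EZH2i minus vehicle (right) for each of the 10 genes under the deposited scaling and 4 others, with dashed lines at 2-fold; RP and MT stand for ribosomal protein and mitochondrially encoded. In CDK2i the symbols of a gene lie close together and EGR1 is at 2.46 or above under each scaling, while in EZH2i those of EGR2, EGR3 and DUSP4 lie on both sides of 0.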

How the data were processed

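RNAseq of 3 SUM-149 xenograft tumor libraries (vehicle, CDK2i and EZH2i, 1 each) was analysed. The authors deposited log2 FPKM per gene symbol, with −9 where a gene had 0 FPKM. GRCh37/hg19 was the reference, and the submitters' processing notes name CASAVA and STAR; the counting tool and versions are not given in the sources used here. The fold threshold of 2 and the minimum of log2 FPKM 3 are those the study names for its own gene selection.

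Changes are differences of the deposited log2 values, without a pseudocount. A limma p, used by the study, could not be had from 1 library per group. Groups and columns were taken from the labels. The members, lists and thresholds were chosen with earlier results of these data known. All members and list genes could be named; nearest-pattern genes were found for 1 member per family (EGR1, IER3, DUSP6 and SPRY2). GENCODE 44 (GRCh37) gave positions, exon lengths and GC content, matched by symbol for 20330 of 29689 genes, 1478 of them through a synonym. The trend was a constant plus a cubic in GC content and in log transcript length, fitted without ribosomal protein genes. Its removal thus also shifts each treated library as a whole. Of expressed genes, 92.1% had both measures. Library sizes were taken from the FPKM step of 1 fragment, on which 224 of 1279, 256 of 1481 and 223 of 1263 low genes lay. The calculations were tested on simulated data. Alternatives were fold, minimum, pseudocount and scaling. Python 3.11.15, numpy 2.4.6, pandas 2.3.3, scipy 1.17.1 and matplotlib 3.10.9 were used.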

Additional observations from a re-analysis of the deposited data

How the results depend on the processing

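In the CDK2i comparison the 7 genes higher than vehicle numbered between 5 and 9 changed genes under the alternatives, and in the direct comparison of CDK2i with EZH2i the 6 changed genes numbered 4 to 7. In EZH2i the single changed gene, EGR1, was joined by others with a fold above 1.5 (4 genes), with the expression minimum dropped or set to log2 FPKM 1 (3 each), with equal summed FPKM (3), with equal sums without ribosomal protein and mitochondrially encoded genes (2) and after removal of the GC and length trend (2), and 0 genes passed a fold above 3. The medians of the 10 genes moved by less than their median spread, and none changed sign. No called change of a single gene changed sign under pseudocounts or scalings. No paired analysis was possible because each group holds 1 library, and for the same reason no library could be left out.

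Over the whole table the counts moved with the thresholds. Against 752 changed genes in CDK2i, 990 in EZH2i and 1779 between the treated tumors, a fold above 1.5 gave 1947, 2710 and 3530, and a fold above 3 gave 250, 186 and 599. No expression minimum gave 11703, 10795 and 14245, a minimum of log2 FPKM 1 gave 2037, 2231 and 4032, and one of 5 gave 196, 262 and 403. Equal summed FPKM gave 1621 in EZH2i, and removing the trend, which also leaves out genes without a transcript, gave 360 in EZH2i and 960 between the treated tumors. The share of changed genes that were higher depended on scaling. It was 28.9% in CDK2i, 66.9% in EZH2i and 27.1% in CDK2i against EZH2i as deposited, 51.0%, 31.8% and 71.9% with centring, 46.1%, 88.9% and 19.9% with equal sums, 17.6%, 71.4% and 16.1% with equal sums without ribosomal protein and mitochondrially encoded genes, and 48.6%, 39.2% and 56.2% with the trend removed. The cause was not tested.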
